A study of Mus musculus with 28 samples.

Results

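The cytosolic ribosomal protein genes were taken as every row of the count tables whose mouse symbol is Rpl or Rps followed by a number, with or without a closing a, x, y or l, together with the stalk genes Rplp0, Rplp1 and Rplp2. This symbol rule, which uses no measured value, found 87 of 43280 rows: 48 large-subunit genes, 36 small-subunit genes and the 3 stalk genes. Processed pseudogene rows ending in -ps, S6 kinase genes and mitochondrial ribosomal protein genes did not match. Of the 87 members, 86 were annotated in GENCODE on GRCm38, 82 as protein coding and 4 as pseudogenes (Rps4l, Rps12l1, Rps3a2 and Rps3a3), while Rps12l2 had no entry. All 87 passed the filter on low counts.

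The libraries came from germ cells sorted by a PIWIL2-eGFP reporter from testes of Stra8 knockout (KO) and wild-type (WT) mice, of C57BL/6 x 129s4/SvJae origin. Mice of both genotypes were given WIN 18,446, a blocker of retinoic acid synthesis that holds spermatogonia before differentiation, for 7 days. The 0 h groups were collected at that point, and the KO and WT groups of 12, 18, 48, 72, 96 and 120 h were collected after an injection of retinoic acid, which releases the arrested cells in synchrony. Each of the 14 groups had 2 libraries of poly(A) RNA read on an Ion Proton sequencer. The labels used here give no ages, and do not say whether the 2 libraries of a group came from separate or pooled mice, so p-values measure the spread between these libraries, which may be technical.

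Ribosomal proteins form the large and small subunits around the ribosomal RNAs, and the stalk proteins recruit translation factors to the large subunit. Their mRNAs are among the most abundant of a growing cell, and most begin with a run of pyrimidines, the 5′ terminal oligopyrimidine (TOP) tract, through which TOR signalling and LARP proteins set their translation and stability. Many have processed pseudogenes that copy the mRNA. In the male germ line, some X-linked ribosomal protein genes have autosomal retrocopies, such as Rpl10l for Rpl10 and Rpl39l for Rpl39, which are used when the X chromosome is silenced in meiosis.

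STRA8, the protein missing in KO cells, is induced by retinoic acid in spermatogonia and drives meiotic initiation. Stra8 itself was at 0 to 62.1 CPM (the count scaled to the library's total) in KO libraries and 7.65 to 1042 CPM in WT libraries. Libraries held 914126 to 9517360 reads in KO and 5757921 to 10147341 reads in WT. The lowest 3 totals belonged to the KO libraries of 72, 96 and 120 h in the second count table, with 1079696, 914126 and 1031189 reads, and these 3 shallow KO libraries also stood apart in the members, so results that rest on them are given with and without them. Among markers of other testis cells, all 8 Sertoli markers were detected, with summed levels of 56.0 to 800.2 CPM in KO and 37.0 to 217 CPM in WT, and all 6 peritubular and stromal markers, with 121 to 462 CPM in KO and 66.0 to 348 CPM in WT. Their part in the differences below was not tested. The 10 markers of undifferentiated spermatogonia summed to 1244 to 2578 CPM in KO and 622 to 2647 CPM in WT. The 7 markers of differentiating spermatogonia, Stra8 among them, summed to 748 to 3167 CPM in KO and 656 to 3564 CPM in WT. The 6 of meiotic prophase summed to 195 to 498 and 265 to 588 CPM. The 4 endothelial markers summed to 16.4 to 38.2 CPM in KO and 8.21 to 41.9 CPM in WT. The markers of Leydig cells, leukocytes, red cells and spermatids each stayed under 16 CPM in every library.

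The start of a ribosomal protein mRNA is where its TOP tract would lie, so the sequences around the transcription start are shown for members that the results turn on. RefSeq start sites on GRCm38.p6 were found for 62 of the 87 members. A tract was counted as a C followed by at least 4 bases that were each C or T, on the sense strand, beginning within 10 bases of the start. It was present in 39 of the 62 members (62.9%) and in 9297 of 27025 genes with an entry (34.4%). Each line gives 40 bases before the start and 25 bases from it, 5′ to 3′, with the tract in capitals.
Rps6: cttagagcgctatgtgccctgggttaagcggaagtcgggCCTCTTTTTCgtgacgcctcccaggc
Rps9: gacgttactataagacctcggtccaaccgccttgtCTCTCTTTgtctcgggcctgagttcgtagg
Rps27: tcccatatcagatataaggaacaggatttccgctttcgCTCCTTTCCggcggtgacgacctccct
Rpl10l: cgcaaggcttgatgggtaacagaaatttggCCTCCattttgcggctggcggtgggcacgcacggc
Rpl4: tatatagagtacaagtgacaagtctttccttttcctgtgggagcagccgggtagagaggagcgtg
Rps3: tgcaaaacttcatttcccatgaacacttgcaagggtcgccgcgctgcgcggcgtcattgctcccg
Rps4x: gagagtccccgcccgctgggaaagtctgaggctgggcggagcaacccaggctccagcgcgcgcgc
These stretches lie at chr4:86857343-86857407 (minus strand) for Rps6, chr7:3704001-3704065 (plus) for Rps9, chr3:90213624-90213688 (minus) for Rps27, chr12:66284377-66284441 (minus) for Rpl10l, chr9:64173347-64173411 (plus) for Rpl4, chr7:99483685-99483749 (minus) for Rps3 and chrX:102189367-102189431 (minus) for Rps4x. In the first 3 the tract spans the annotated start. In Rpl10l the run of 5 pyrimidines begins 10 bases before the annotated start and ends before it. It was counted under the rule above, but it would lie outside an mRNA that begins at that start. Rpl4, Rps3 and Rps4x had no match, which says only that no such run begins within 10 bases of the annotated start. The Rpl4 line does hold a pyrimidine run, ctttccttttcct, that begins further upstream than this window.

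Together the 87 genes took 2.17 to 3.98% of reads in the other 11 KO libraries (median 2.55%) and 1.47 to 3.62% in the 14 WT libraries (median 2.27%). The 3 shallow KO libraries were far below both, at 0.830, 0.832 and 0.947%. Over the course from 0 to 120 h, the KO libraries of the first count table held 2.44, 2.55, 2.88, 2.66, 2.84, 3.98 and 2.51% of reads in members, and those of the second 3.04, 2.17, 2.17, 2.44, 0.830, 0.832 and 0.947%. The WT libraries held 2.53, 1.47, 1.69, 1.65, 1.81, 2.22 and 1.68% in the first table and 3.62, 2.53, 2.53, 2.06, 2.55, 2.33 and 2.96% in the second. In WT the second table was the higher one at 7 of 7 times, so the tables, which hold the 2 replicates of each group apart, differed in members whatever the time. Within the first table KO was above WT at 6 of 7 times, the exception being 0 h, and within the second at 1 of 7, namely 48 h, where 3 of the 7 KO libraries are the shallow ones. KO columns are known by group and table only, so a table does not tie a KO library to a WT library. In KO the first table was the higher one at 6 of 7 times. Counts within the first table thus mostly set the higher KO libraries against the lower WT ones. Counts within the second mostly set the lower KO libraries against the higher WT ones. In both tables the WT share at every later time was below that table's own 0 h library.

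**Figure D1:**
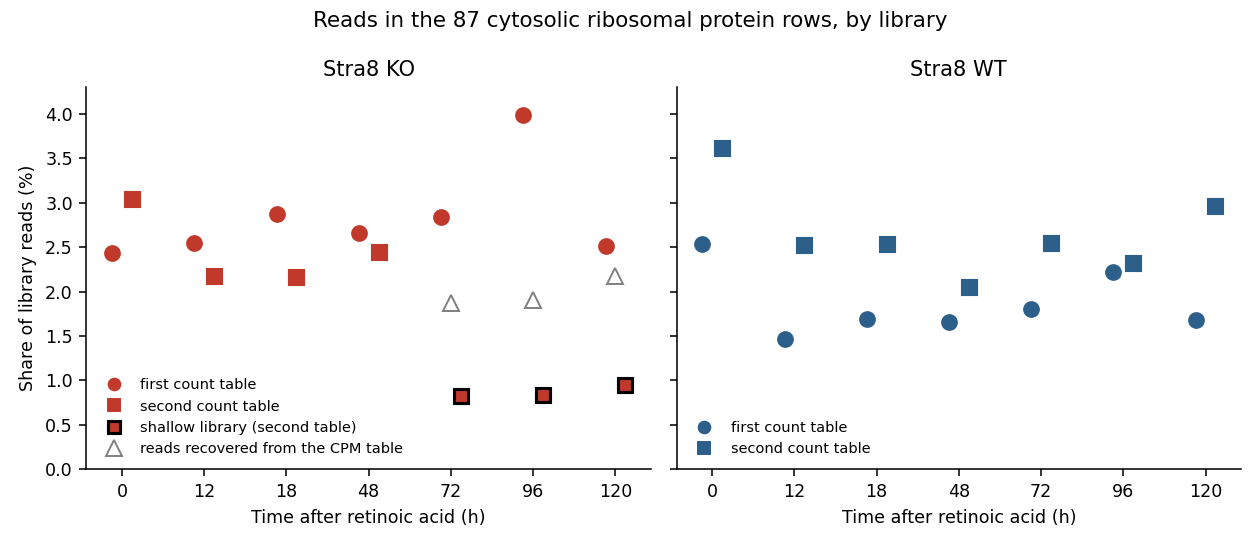
Share of reads (percent) in the 87 cytosolic ribosomal protein genes by hours after retinoic acid, KO panel left and WT panel right, with circles for the first count table, squares for the second, black edges for the shallow libraries and triangles for the recovered second set of KO values. The 3 shallow KO libraries lie at 0.830 to 0.947%, below all other libraries, which run from 1.47 to 3.98%.

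Large-subunit genes took 1.51 to 1.72 times the reads of small-subunit genes in KO libraries and 1.48 to 1.73 times in WT libraries, and the shallow KO libraries lay inside this range at 1.57 to 1.67. The rows of -ps pseudogenes took 0.0149 to 0.0227% of reads in the shallow KO libraries, 0.0927 to 0.172% in the other KO libraries and 0.0601 to 0.166% in WT. The mitochondrial ribosomal protein genes, which serve a separate ribosome, took 0.292 to 0.301% in the shallow KO libraries and 0.238 to 0.388% across all 28 libraries.

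Levels between genes are compared per kilobase of transcript. By mean CPM per kilobase over all libraries the highest members were Rpl4, a core protein of the large subunit, at 1336, the stalk protein gene Rplp0 at 1129, Rps2 at 968 and Rpl8 at 901. At the other end of the protein-coding members stood Rpl24 at 1.90, Rpl3l, a paralog of Rpl3 known from striated muscle, at 3.53, and the X-linked genes Rpl39 at 10.6 and Rps4x at 31.6. In plain CPM Rpl4 was at 1641 to 3088 in KO and 1354 to 2818 in WT, whereas Rpl24 was at 0 to 3.28 in KO and 0.48 to 2.13 in WT. Rpl24 encodes a protein of every cytosolic ribosome, but 81.7% of its transcript is shared with other genes and 47.0% of its exons overlap other genes, so its counts are uncertain.

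Sequence sharing was measured as the percentage of 50-base windows of a member's transcript that occur exactly in transcripts of another gene, mostly pseudogenes. Of the 82 protein-coding members, 79 shared at least 1 window, 47 shared over 50% of windows, 26 shared 10 to 50% and 9 shared under 10%. The last group included Rpl39l and Rpl3l at 0, Rps3 at 2.96, Rps15a at 6.14, Rps20 at 7.57, Rpl10l at 7.60, Rpl8 at 7.86 and Rpl7l1 at 9.19%. The sources used here do not give how reads matching several places were counted, which makes levels of the more shared members uncertain. Across members, sharing and mean CPM per kilobase had a Spearman correlation of -0.0035 (82 genes, a description).

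In the shallow KO libraries the members' levels went with this sharing. The log2 ratio of a shallow library to its partner of the same time, with 1 CPM added to each, had a median of -0.62, -0.75 and -0.29 at 72, 96 and 120 h over the 9 members sharing under 10% of windows. The 26 intermediate members had medians of -2.28, -3.00 and -1.96, and the 47 members sharing over 50% had -3.47, -4.46 and -3.55. Spearman's rho across the 82 members was -0.563, -0.537 and -0.588, whereas in the other 11 pairs of same-group libraries it ran from -0.35 to 0.24. These are descriptions over genes that share their libraries, and their cause was not tested.

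Rps27, a small-subunit gene with 98.6% of windows shared, shows the pattern at its plainest. It was at 0.926, 0 and 0.970 CPM in the shallow KO libraries of 72, 96 and 120 h, against 159, 241 and 193 CPM in their partners, where 0 of 914126 reads leaves room for a level of up to 3.28 CPM by counting error alone. Rps3, which shares 2.96% of windows, was at 570, 667 and 610 CPM in the same libraries, against 857, 964 and 616 CPM in their partners. Rps15a and Rps20 stood apart within the group with the lowest percentages shared. Their log2 ratios at the 3 times were -2.75, -3.61 and -2.87 for Rps15a and -2.98, -3.89 and -2.99 for Rps20. Their percentages, 6.14 and 7.57%, were taken over long transcripts of 5130 and 3706 bases, against a median of 774.5 bases over members. A low percentage of so long a transcript can still cover many windows. Whether the reads of Rps15a and Rps20 fell in the shared windows was not tested. A second set of deposited values for KO at 72, 96 and 120 h, which matched no count column, corresponded to 4479729, 4190650 and 4122223 reads with 1.87, 1.91 and 2.17% in members.

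**Figure D2:**
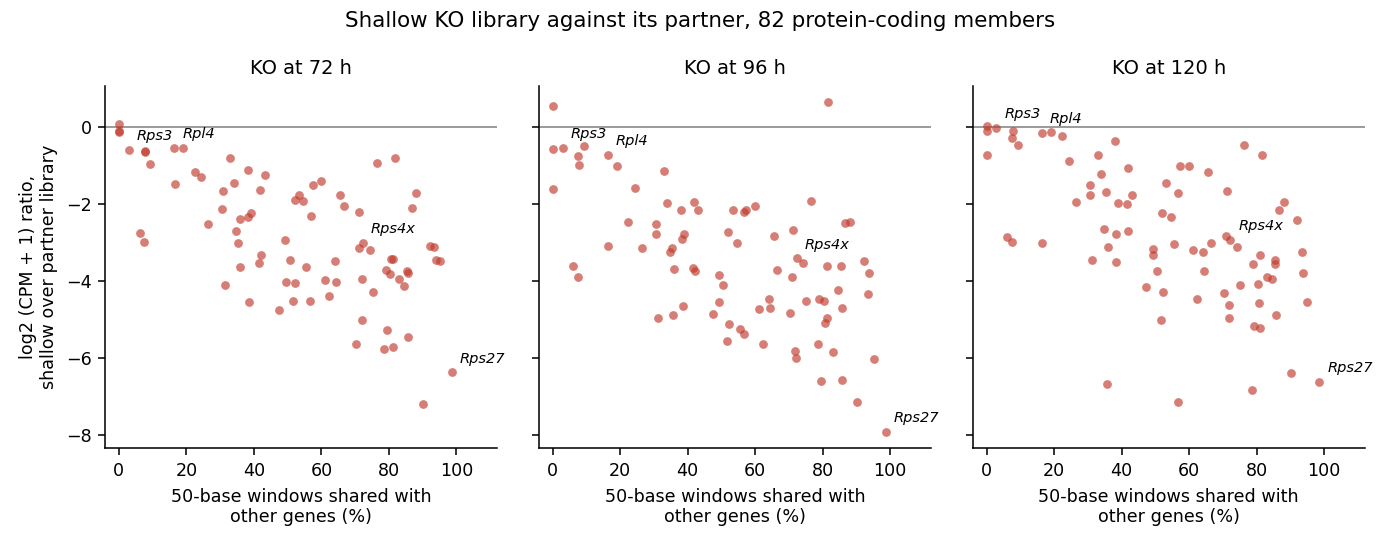
Log2 ratio of each shallow KO library to its partner of the same time (CPM plus 1) against the percentage of 50-base windows shared with other genes, for 82 protein-coding members. The ratios lie lower where more of the transcript is shared, with medians down to -4.46 for members sharing over 50% of windows at 96 h.

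With all 28 libraries, 4 of 87 members were higher in KO than in WT averaged over the 7 times and none was lower (edgeR quasi-likelihood test, Benjamini-Hochberg over 17519 genes, adjusted p under 0.05). The share of all genes called was 37.7%, or 16.9% for genes higher in KO. Among them were Rps3 and Rpl10l, which share under 10% of windows, and Rpl4, which shares 16.5%. In these bulk samples, fewer cells that express a gene and less RNA per cell cannot be told apart.

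Rps3, at the mRNA entry side of the small subunit, was at 570 to 964 CPM in KO (median 694) and 403 to 842 CPM in WT (median 536). KO was above WT at 7 of 7 times in the first table and 6 of 7 in the second, and the log2 fold change of KO over WT was 0.32 ± 0.09 (SE, edgeR adjusted p = 0.0066). Rpl10l was at 58.0 to 115 CPM in KO (median 105) and 38.2 to 123 CPM in WT (median 79.4), with KO above WT at 7 of 7 times in the first table and 3 of 7 in the second. Its log2 fold change was 0.35 ± 0.10 (edgeR adjusted p = 0.011). Rpl4 was at 1641 to 3088 CPM in KO (median 2278) and 1354 to 2818 CPM in WT (median 1782). It was above WT at 7 of 7 times in the first table and 2 of 7 in the second, with a log2 fold change of 0.28 ± 0.10 (edgeR adjusted p = 0.029). For all 3 genes the counts within a table rest on a pairing of KO with WT that the labels do not give.

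The call of Rps3 held under all 39 alternative fits, with adjusted p up to 0.030. Rpl10l lost its call only without the KO 72 h library of the first table (log2 fold change 0.27, adjusted p = 0.0501), and Rpl4 lost it when any 1 of 15 libraries was left out (adjusted p up to 0.0998). Without the KO 96 h library of the first table, the KO library with the highest member share, 7 members were called, 3 higher and 4 lower, beside 31.3% of all genes, 13.2% higher and 18.1% lower. With no filter on low counts 34 members were called, 19 higher and 15 lower, beside 19.6% of 34303 genes, 9.19% higher and 10.5% lower. The same 87 members were tested in that fit, which differs for them in the estimate of spread and the genes adjusted over.

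**Figure D3:**
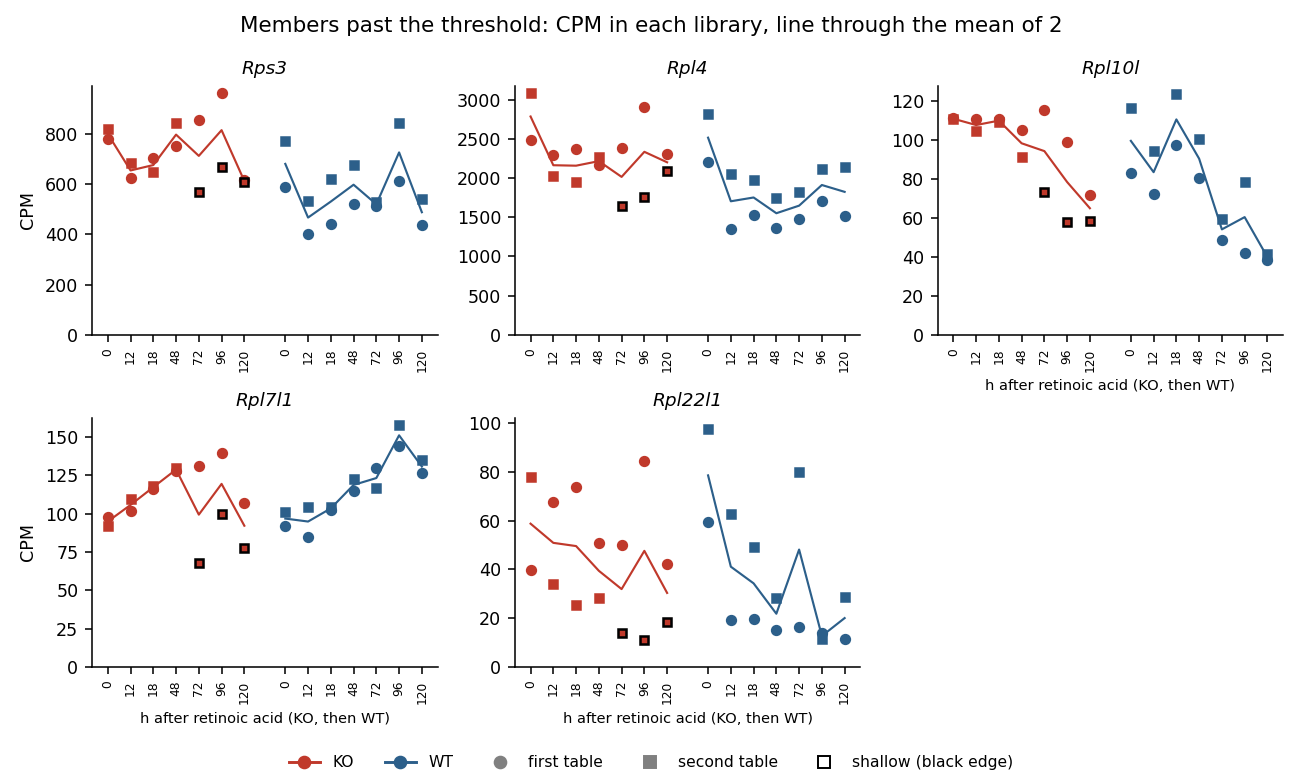
CPM of Rps3, Rpl4, Rpl10l, Rpl7l1 and Rpl22l1 by hours after retinoic acid, KO left and WT right in each panel, with circles for the first table, squares for the second, black edges for the shallow libraries and lines through the mean of 2. KO points of Rps3 lie at 570 to 964 CPM and WT points at 403 to 842 CPM, with the WT maximum at 96 h.

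Without the 3 shallow KO libraries the picture of the same comparison was broader. Of the 87 members, 18 were higher in KO and none lower (edgeR), where 34.6% of all genes were called in either direction and 16.7% were higher in KO. The median log2 fold change over members was 0.30, against -0.01 with all libraries, and 79 of 87 were positive, against 40 with all libraries. The 18 included the 4 called before, and by size they were led by Rps12l1 at 0.88 ± 0.17, Rps4x at 0.78 ± 0.12, Rps26 at 0.73 ± 0.25 and Rpl37 at 0.67 ± 0.24 (edgeR adjusted p = 0.00044, 5.9e-05, 0.037 and 0.041). Rps12l1 is a processed pseudogene with 100% of its windows shared, so its reads may belong to other genes. Rps26 lies in the small subunit next to the mRNA exit, and Rpl37 in the large subunit. With the recovered second set of KO values in place of the 3 shallow libraries, 10 members were called, all higher in KO, beside 42.6% of all genes. The median over members was then 0.15, with 69 of 87 positive.

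The number of members called in this comparison thus rests on 3 of 28 libraries, and the spread estimated for members moved with them. The biological coefficient of variation estimated by edgeR had a median of 0.589 over members with all libraries and 0.266 without the shallow ones, against 0.155 and 0.152 over all genes above 50 CPM.

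**Figure D4:**
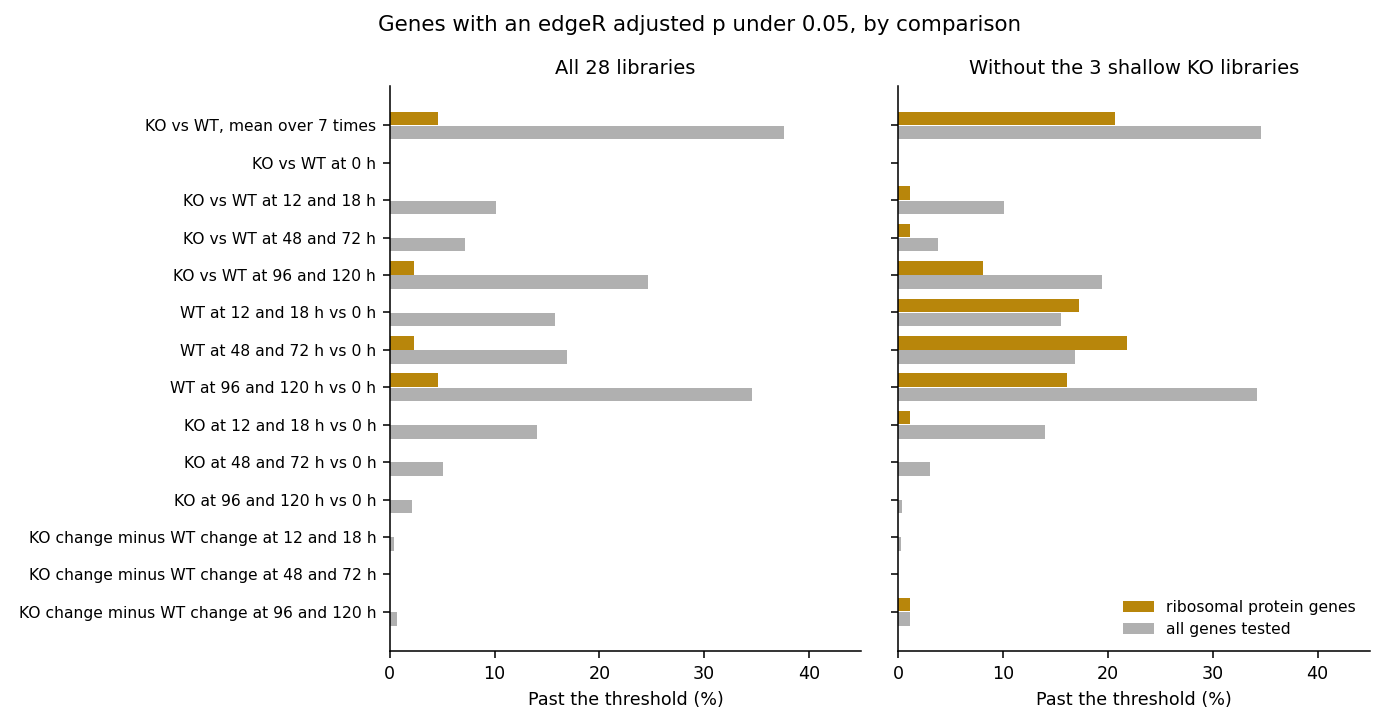
Percentage of the 87 members and of all tested genes called (edgeR, adjusted p under 0.05) in each comparison, with all 28 libraries on the left and without the 3 shallow KO libraries on the right. For KO over WT averaged over 7 times, 4 members are called on the left and 18 on the right, beside 37.7% and 34.6% of all genes.

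Before retinoic acid, no member passed the threshold between KO and WT. At 0 h edgeR called 0 of 87 members and 0% of all genes, with 0 members and 1181 genes at an unadjusted p under 0.05, and DESeq2 also called 0 members. The log2 fold change was negative for 69 of 87 members, with a median of -0.31 against -0.01 over all genes. With no filter on low counts 4 members were called at 0 h, all lower in KO, beside 0.213% of 34303 genes, 0.152% lower. At 12 and 18 h no member was called by edgeR or DESeq2 (2 at an unadjusted p under 0.05) while 10.2% of all genes were, although 79 of 87 members were positive, with a median of 0.29 against -0.02 over all genes. The smallest p belonged to Rps3, at 0.47 ± 0.17 (edgeR adjusted p = 0.076). At 48 and 72 h no member was called either, by edgeR or DESeq2 (2 at an unadjusted p under 0.05), beside 7.15% of all genes. Again Rps3 had the smallest p, at 0.41 ± 0.17 (edgeR adjusted p = 0.13).

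At 96 and 120 h 1 member was higher and 1, Rpl7l1, was lower in KO, where 24.7% of all genes were called, 11.5% higher and 13.2% lower. Rpl7l1 encodes a protein related to RPL7 that acts in ribosome assembly in the nucleolus of human cells. It was at 139 and 99.5 CPM at 96 h and 107 and 77.6 CPM at 120 h in KO, against 144 and 158 CPM at 96 h and 127 and 135 CPM at 120 h in WT, first table before second. The 3 lowest of these values are KO, and 2 of the 3 are shallow libraries. The log2 fold change was -0.50 ± 0.16 (edgeR adjusted p = 0.029), but without the shallow libraries it was -0.23 ± 0.13 (adjusted p = 0.24), so the call rests on them. With no filter on low counts 39 members were called in this comparison, 6 higher and 33 lower, beside 12.5% of 34303 genes, 6.17% higher and 6.31% lower. The Rpl7l1 call was also lost with library totals as the only scaling, with the recovered KO values and when any 1 of 12 libraries was left out.

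Without the shallow libraries 7 members were higher in KO at 96 and 120 h and none lower, beside 19.4% of all genes in either direction and 10.7% higher. Among them were Rps12l1 at 1.35 ± 0.34, Rps4x at 1.27 ± 0.25 and Rpl10l at 0.75 ± 0.21 (edgeR adjusted p = 0.0085, 0.0013 and 0.014). Rpl18, Rpl7 and the stalk gene Rplp0 were also called, at 0.61, 0.56 and 0.69. In the same fit Rps4x was the only member called at 12 and 18 h, at 0.66 ± 0.21 (edgeR adjusted p = 0.046, beside 10.1% of all genes, 6.13% higher), and at 48 and 72 h, at 0.98 ± 0.23 (adjusted p = 0.023, beside 3.83%, with 2.56% higher). KO had 1 library at each of 72, 96 and 120 h in this fit, and those libraries were assumed to vary like the other groups. The median over members at 96 and 120 h was 0.43 in this fit and 0.15 with the recovered KO values. The recovered values gave 4 members called, all higher, beside 27.9% of all genes.

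In WT cells, members were lower at the later times than at 0 h, and the 3 comparisons share their 0 h libraries. The median log2 fold change over members was -0.62 at 12 and 18 h, -0.66 at 48 and 72 h and -0.41 at 96 and 120 h, while the medians over all genes lay between -0.01 and 0.01. Only 2, 5 and 13 of 87 members were positive. The test called few of them: 0 at 12 and 18 h (15.8% of all genes; edgeR and DESeq2 both 0, with 4 members at an unadjusted p under 0.05), 2 lower at 48 and 72 h (16.9%, with 9.34% lower), and 1 higher and 3 lower at 96 and 120 h (34.6%, with 17% higher and 17.6% lower). In WT the replicate numbers paired the libraries, a pairing that the test above leaves out. With the replicate number within each genotype as a block, 6, 7 and 6 members were called, all lower but 1 of the last 6. The shares of all genes called in that fit were 20.7, 22.4 and 40.8% (11.7, 12.1 and 20.7% lower, and 20.2% higher at the last). Leaving out the second-table WT library of 12 h or of 18 h gave 1 called member at 12 and 18 h, and at 96 and 120 h the count was 0 without the second-table WT 0 h library and 1 without the first-table WT 120 h library.

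Rps4x, the X-linked gene of a small-subunit protein, fell at both later phases. From 0 to 120 h the WT libraries of the first table had 68.8, 29.96, 21.9, 13.1, 17.4, 19.4 and 15.5 CPM, and those of the second 60.4, 35.0, 36.3, 7.97, 31.2, 13.7 and 16.8 CPM. All 12 later WT libraries were below both 0 h libraries. Against 0 h, the log2 fold change was -1.999 ± 0.62 at 48 and 72 h and -1.91 ± 0.62 at 96 and 120 h (edgeR adjusted p = 0.038 and 0.026). The first of these was lost with DESeq2 and when any 1 of 17 libraries was left out, and the second when WT 0 h of either table, WT 96 h of the second or WT 120 h of either was left out (adjusted p up to 0.12), with log2 fold changes of -1.85 to -2.27 and -1.88 to -2.04. Reads of Rps4x are uncertain, since 72.2% of its windows occur in other genes.

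Rpl4 was the other member lower in WT at 48 and 72 h, at 1358 and 1742 CPM at 48 h and 1472 and 1822 CPM at 72 h, against 2209 and 2818 CPM at 0 h. Its log2 fold change of -0.65 ± 0.22 was close to the threshold (edgeR adjusted p = 0.046) and was lost when any 1 of 20 libraries was left out and with scaling factors computed without the members. At 96 and 120 h Rpl10l fell to 42.1 and 78.5 CPM and 38.2 and 41.4 CPM in WT, against 82.7 and 116 CPM at 0 h, by -0.96 ± 0.23 on the log2 scale (edgeR adjusted p = 0.0023), a call lost only without the WT 0 h library of the second table (-0.72, adjusted p = 0.071).

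Rpl22l1, a paralog of Rpl22 that binds RNA and can take its place in the ribosome, was at 14.1 and 11.3 CPM at 96 h and 11.5 and 28.6 CPM at 120 h in WT, against 59.4 and 97.8 CPM at 0 h. The groups did not overlap, and the log2 fold change was -2.23 ± 0.79 (edgeR adjusted p = 0.040). It was lost without either WT 0 h library, either WT 96 h library or the first WT 120 h library (adjusted p up to 0.20), and 65.6% of its windows are shared. Rpl7l1 was the only member higher in WT, at 144 and 158 CPM at 96 h and 127 and 135 CPM at 120 h, against 92.3 and 101 CPM at 0 h. Its log2 fold change was 0.60 ± 0.20 (edgeR adjusted p = 0.024), lost when any 1 of 14 libraries was left out (adjusted p up to 0.29).

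Without the shallow KO libraries, which changes the estimate of spread but none of the WT libraries, 15, 19 and 13 members were lower in WT at the 3 phases and 0, 0 and 1 higher, beside 15.5, 16.9 and 34.2% of all genes called (9.21, 10.2 and 19.9% lower, and 14.3% higher at the last). Led by size, the members called were Rps4x at -1.11 and Rpl3 at -1.09 at 12 and 18 h, Rps4x at -2.03 and Rpl29 at -1.83 at 48 and 72 h, and Rpl22l1 at -2.30 and Rps4x at -1.99 at 96 and 120 h. Rpl3, which helps form the peptidyl transferase centre of the large subunit, was at 331 to 454 CPM at 12 and 18 h in WT, against 839 and 879 CPM at 0 h. Its log2 fold changes were -1.09 ± 0.16, -1.10 ± 0.16 and -0.81 ± 0.16 (edgeR adjusted p = 6.9e-05, 9.0e-05 and 0.00060). Rps6, whose protein is the classic S6 kinase substrate and whose start carries a tract of 10 pyrimidines, had -0.79 ± 0.16, -0.77 ± 0.16 and -0.61 ± 0.16 (edgeR adjusted p = 0.0019, 0.0025 and 0.0065).

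In KO cells, no member was called against 0 h at any phase with all libraries, by edgeR or DESeq2 (0, 0 and 1 at an unadjusted p under 0.05), beside 14, 5.11 and 2.08% of all genes. The medians over members were -0.07, -0.28 and -0.39 at the 3 phases. Without the shallow libraries they were -0.07, 0.02 and 0.28, and 1 member passed, Rpl3 at 12 and 18 h, at -0.51 ± 0.16 (edgeR adjusted p = 0.041, beside 14% of all genes, 8.04% lower). Rpl3 was at 399.7 to 554 CPM at 12 and 18 h in KO, against 601 and 751 CPM at 0 h. The later phases then had 0 members called (4 and 1 at an unadjusted p under 0.05), beside 2.98 and 0.394% of all genes. With all libraries but the first-table KO 96 h library, 1 member was called, lower, at 96 and 120 h.

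The difference between the genotypes' changes was tested by itself, as the KO change minus the WT change from 0 h. With all libraries edgeR and DESeq2 called 0 members at each phase (0 at an unadjusted p under 0.05 in edgeR), where 0.36, 0 and 0.708% of all genes were called, and the medians over members were 0.59, 0.33 and 0.02. Without the shallow libraries the medians were 0.59, 0.67 and 0.75, with 85, 87 and 85 of 87 members positive, and 1 member passed, Rps4x at 96 and 120 h, at 1.63 ± 0.38 (edgeR adjusted p = 0.039, beside 1.13% of all genes, 0.931% higher). The other phases had 0 called by edgeR (6 and 10 at an unadjusted p under 0.05), beside 0.296 and 0% of all genes. From 0 to 120 h Rps4x was at 44.0, 48.4, 47.7, 24.9, 37.0, 44.6 and 36.3 CPM in the KO libraries of the first table, and at 59.7, 50.1, 41.6 and 29.3 CPM up to 48 h in those of the second. The shallow libraries had 3.70, 3.28 and 3.88 CPM. Every KO library outside the shallow ones from 12 h on was above the WT library of its own table and time, although a table does not pair KO with WT. With the recovered KO values in place of the shallow libraries, 0 members were called for the change difference at each phase. The medians over members were then 0.58, 0.53 and 0.42, and 0.491, 0 and 0.901% of all genes were called.

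Besides Rps4x, the X-linked members were Rpl10, Rpl36a and Rpl39. Rpl10, which encodes a late-joining protein of the large subunit, was at 35.6 to 83.4 CPM in KO outside the shallow libraries, 6.48 to 6.79 CPM within them, and 48.7 to 97.9 CPM in WT. Its autosomal retrocopy Rpl10l was at 71.5 to 115, 58.0 to 73.2 and 38.2 to 123 CPM in the same sets. Rpl39, a small protein at the exit tunnel, was at 2.99 to 16.7 CPM in KO outside the shallow libraries and 1.79 to 23.0 CPM in WT, far under its retrocopy Rpl39l at 58.9 to 145 and 26.3 to 135 CPM, although the 2 genes differ in length and sharing (16.5% and 0%). Rps4l, a copy of Rps4x annotated as a pseudogene and sharing 18.0% of windows, was at 90.2 to 199.7 CPM in KO and 95.0 to 186 CPM in WT, and was not called in any of the 14 comparisons with all libraries. Rpl36a was at 54.8 to 145 CPM in KO outside the shallow libraries and 38.5 to 129 CPM in WT.

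**Figure D5:**
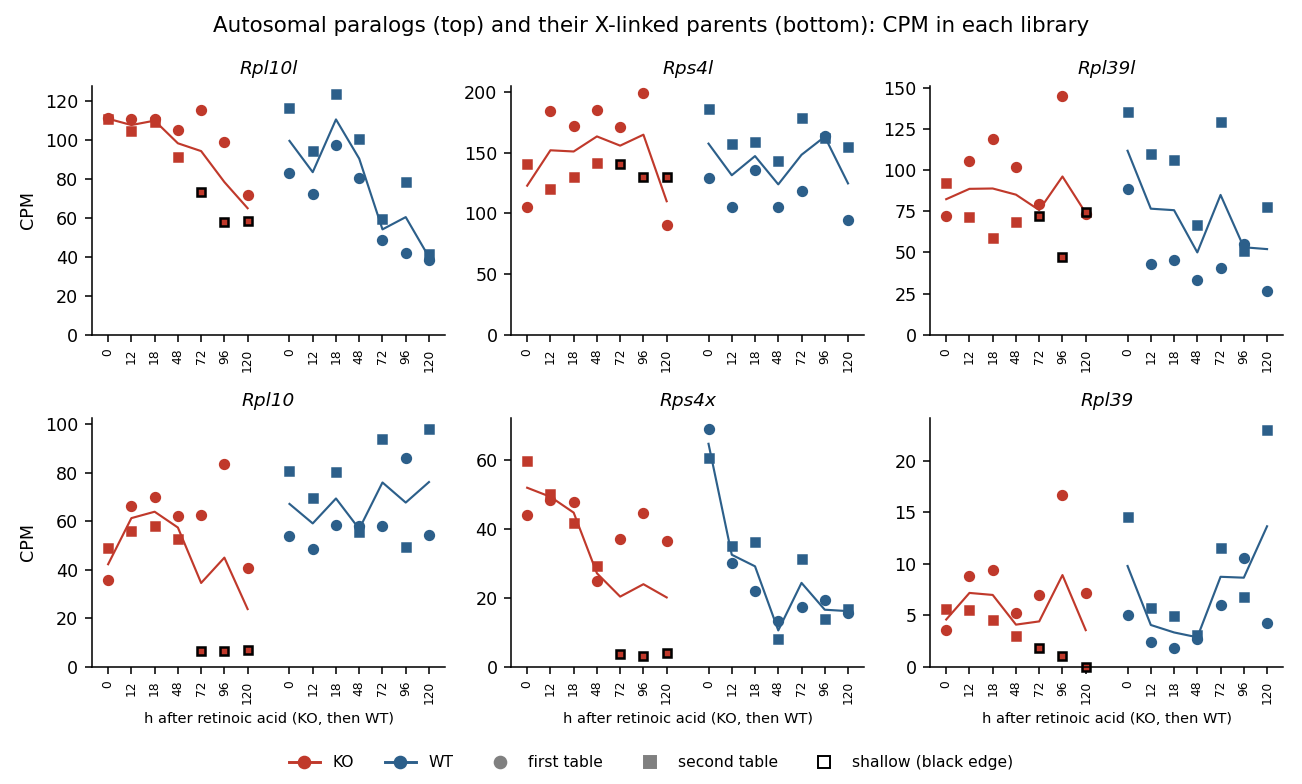
CPM of the autosomal copies Rpl10l, Rps4l and Rpl39l (upper row) and of their X-linked counterparts Rpl10, Rps4x and Rpl39 (lower row) by hours after retinoic acid, KO left and WT right in each panel, with points and lines as in the plot of called members. WT Rps4x lies at 60.4 and 68.8 CPM at 0 h and at 7.97 to 36.3 CPM later, while Rps4l stays at 95.0 to 186 CPM in WT.

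Among other paralogs, Rps27l, a p53 target related to Rps27, was at 6.51 to 47.1 CPM in KO and 5.81 to 53.0 CPM in WT, and Rpl3l at 2.91 to 8.75 CPM in KO and 3.55 to 8.58 CPM in WT. Rpl22 was at 108 to 418 CPM in KO and 96.4 to 449 CPM in WT, and Rpl7 at 102 to 501 CPM in KO and 224 to 556 CPM in WT. None of these 4 was called in any comparison with all libraries. Of the stalk genes, Rplp0, the scaffold for the other two, was at 655 to 2685 CPM in KO (1653 to 2685 outside the shallow libraries) and 953 to 2258 CPM in WT, with a log2 fold change of 0.20 ± 0.22 averaged over 7 times and 0.46 ± 0.11 without the shallow libraries (edgeR adjusted p = 0.51 and 0.0034). Rplp1 was at 106 to 480 CPM in KO and 196 to 451 CPM in WT, and Rplp2 at 172 to 1182 CPM in KO and 362 to 1029 CPM in WT. Large-subunit, small-subunit and stalk genes had median log2 fold changes of KO over WT of -0.05, 0.02 and -0.15, and of 0.27, 0.32 and 0.15 without the shallow libraries, with 10, 7 and 1 called.

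Genes of the wider pathway were read from lists of their own. Of 20 elongation factors and other mRNAs known to carry a TOP tract, 4 were higher and 2 lower in KO averaged over 7 times (edgeR, background as above), led by Eef1b2, a subunit of the exchange factor for eEF1A, at 0.67 ± 0.13, and with Eif2s3x, the X-linked gene of an initiation factor 2 subunit, at -0.69 ± 0.23 (adjusted p = 0.00040 and 0.023). Without the shallow libraries 8 were higher and 1 lower, beside 34.6% of all genes called in either direction and 16.7% higher. Of 25 initiation and release factors 2 were higher and 4 lower, with Eif4g3, a scaffold of the cap-binding complex, at -0.76 ± 0.13 (edgeR adjusted p = 0.00018). Of 17 TOR pathway genes and TOP mRNA regulators 3 were higher and 4 lower. Tsc1, an inhibitor of TOR complex 1, was at 0.33 ± 0.07, and Rps6kb1, the gene of S6 kinase 1, at -0.32 ± 0.07 (edgeR adjusted p = 0.00040 and 0.00055).

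Of the ribosome genes outside the symbol rule, Rpsa, the gene of a small-subunit protein also named the laminin receptor, was at 10.2 to 20.4 CPM in the shallow KO libraries, 1112 to 1834 CPM in the other KO libraries and 879 to 1798 CPM in WT. Of 76 mitochondrial ribosomal protein genes 6 were higher and 4 lower in KO averaged over 7 times. Of 74 nuclear oxidative phosphorylation genes 11 were higher and 3 lower. Over all genes 37.7% were called in this comparison, with 16.9% higher. Leaving out the shallow libraries moved the median log2 fold changes of these 2 lists from 0.03 to 0.09 and from 0.13 to 0.21. These medians moved less than that of the 87 cytosolic members, which went from -0.01 to 0.30. The median of the 4 tested ribosome genes outside the rule went from 0.03 to 0.33. That of the 20 elongation factors and other TOP mRNAs went from 0.02 to 0.18. The initiation and release factors went from -0.01 to 0.07, and the TOR pathway list from -0.06 to -0.03.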

How the data were processed

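Poly(A) RNA of 28 libraries was sequenced on an Ion Proton. Bowtie, TopHat, Cufflinks and mm10 are named in the submitters' processing notes; for versions, the counting program, strand and multiply matching reads these sources are silent. The authors deposited raw read counts per gene in 2 tables, 1 for each replicate, and tables of CPM, of which 25 of 28 columns match the counts scaled to their total (tolerance 0.001 CPM). The 3 others (KO at 72, 96 and 120 h) gave whole reads within 0.1 read at 100% of values and were used as an alternative; the count test on these recovered reads called 7374 genes for KO over WT averaged over 7 times. KO columns were mapped to their group and named by table.

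From the counts, 27 date-like rows were kept in totals and left out of tests. edgeR 4.0.16 (R 4.3.3) was used with TMM scaling, filterByExpr (17519 genes), 14 group means, a robust quasi-likelihood fit and Benjamini-Hochberg adjustment over all genes at 0.05; 14 comparisons were made. SE is the log2 fold change over the square root of F. The test was checked on simulated counts with the same spread for every gene and, apart from the changes put in, common gene proportions. That check does not cover the members' own spread or the composition of the shallow libraries. Alternatives were other scalings, no filter, pseudogene rows added, recovered reads, leaving out the 3 shallow KO libraries, replicate blocks, DESeq2 1.42.0 and leaving out each library. Sequence sharing used GENCODE M21 transcripts, promoters RefSeq. Among WT libraries same-numbered replicates deviated together in 21 of 21 pairs of times (r 0.26 to 0.52). The main fit did not use this pairing, so WT fold changes, SEs and adjusted p of single members are unpaired. The replicate number entered as a block only in alternative fits. Members named are the tissue-type paralogs and their parents, stalk and X-linked genes, the 3 highest and 3 lowest levels, and, for each comparison, up to 4 called members in each direction by size, or the 3 smallest p. Others (Rps6, Rps12l1, Rps15a, Rps20, Rps26, Rpl18, Rpl29, Rpl37) were named after their values were seen. The members and lists were chosen with earlier results of these data known. Some genes are not reported here.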

Additional observations from a re-analysis of the deposited data

How the results depend on the processing

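The 3 shallow KO libraries, the fit without the filter on low counts and the block changed most counts of called members. All 87 members passed the filter, so the same members were tested without it. That fit changed the other genes tested and the estimate of spread, where the median prior df over members was 0.263 with the filter. Without the shallow libraries the counts were 18 (KO over WT, mean), 1, 1 and 7 (12 and 18 h, 48 and 72 h, 96 and 120 h), 15, 19 and 14 (WT against 0 h), 1 (KO at 12 and 18 h) and 1 (change difference at 96 and 120 h), against 4, 0, 0, 2, 0, 2, 4, 0 and 0 with all libraries. With recovered reads they were 10 for the mean, 1, 4 and 4 for KO over WT at the later phases, and 7, 10 and 8 for WT. The shares of all genes called in that fit were 42.6% for the mean, 12.1, 9.97 and 27.9% for KO over WT, and 18.0, 19.7 and 37.9% for WT. With no filter on low counts, which also gave an infinite prior df, they were 34 for the mean (19 higher, 15 lower), beside 19.6% of all genes. For KO over WT from 0 h on they were 4, 19, 4 and 39 (0, 19, 3 and 6 higher), beside 0.213, 5.89, 4.24 and 12.5%. For WT they were 51, 58 and 37 (0, 1 and 2 higher), beside 7.60, 8.31 and 16.6%. For KO they were 2, 15 and 23 (1, 1 and 0 higher), beside 6.96, 3.29 and 1.91%. For the change difference they were 4 and 3 at 12 and 18 h and at 96 and 120 h, beside 0.583 and 0.991%. TMM without the members and DESeq2 each left 1 at 48 and 72 h in WT, beside 16.6% of all genes in DESeq2. The share for TMM without the members is not given here.

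The fit with a replicate block shared by both genotypes moved no count by over 1.5 times (5 members for the mean). A block per genotype gave 7 for the mean (6 higher and 1 lower, beside 43.3% of all genes). It gave 3, 5 and 4 for KO over WT at the later phases, beside 15.9, 13.8 and 31.8%. For WT at 12 and 18 h and at 48 and 72 h it gave 6 and 7, beside 20.7 and 22.4%. For KO at 96 and 120 h it gave 1, beside 5.07%. With KO numbered as in the CPM tables, an alternative chosen after seeing the data, the block gave 1 and 2 for KO over WT at 12 and 18 h and at 48 and 72 h, 6 and 6 for WT, and 1 for KO at 96 and 120 h. Shares of all genes are not given for this block or the shared one, so their counts describe members alone. Over all genes, same-numbered KO and WT libraries of a time did not deviate together (r -0.13 to 0.04, 0 of 7 over 0.1). Nor did most KO pairs (7 of 21 over 0.1), so over all genes the numbers paired only WT. Over the members alone, some KO pairs did deviate together. For them r was 0.77 (12 and 18 h), 0.70 (12 and 48 h) and 0.77 (18 and 48 h). Between the times with a shallow library it was 0.89 (72 and 96 h), 0.86 (72 and 120 h) and 0.85 (96 and 120 h). The remaining KO pairs ran from -0.28 to 0.27.

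Leaving out each library gave 3 to 7 for the mean, 0 to 0 at 0 h, 12 and 18 h and 48 and 72 h, 0 to 2 at 96 and 120 h, 0 to 1, 0 to 3 and 0 to 5 for WT, 0 to 0, 0 to 0 and 0 to 1 for KO, and 0 to 0 for the change differences. Of these fits, the share of all genes is given only for the mean without the first-table KO 96 h library (31.3%). The other ranges describe members alone and are not set against all genes. The Rps4x change difference at 48 and 72 h was 0.99, turned to -0.39 without the KO 72 h library of the first table and was 1.33 without that of the second, always short of the threshold. The causes were not tested. With 2 libraries a group and at most 1079696 reads in the shallow ones, differences of single genes at single times are within reach only where they are large.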
